A study of Mus musculus with 51 samples.

Results

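The regions described here are the 11745 peaks called for acetylated nucleophosmin (AcNPM1) in 24h mouse embryos lacking LoNA, in a table that sets embryos given a p300 inhibitor against embryos that were not. They are all peaks of that table, taken without any choice by signal, out of 81643 peaks in the 4 peak tables of the series. Both groups are C57BL/6 embryos with LoNA knocked out (KO), sampled at 24h under normal culture conditions. The 2 groups have 3 labelled samples each, and they differ by the inhibitor, whose name, dose and time of addition the labels do not give. Chromatin was profiled with an antibody against AcNPM1 and an in-situ kit in which a transposase cuts and tags DNA near the bound antibody. A further group, C57BL/6 control embryos at 24h with 3 labelled AcNPM1 samples, is drawn on where the same regions were measured in a second table. The labels carry the inhibitor in the treatment field of every chromatin sample, so the groups were taken from the sample titles. For the inhibitor samples the labels also name a table set against control embryos, while the columns of the table read here name KO and KO with inhibitor.

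Nucleophosmin, encoded by Npm1, is an abundant histone chaperone that shuttles between nucleolus and nucleoplasm and takes part in ribosome assembly. The acetyltransferase p300 adds acetyl groups to histones and to other proteins, nucleophosmin among them, and acetylated nucleophosmin has been described mainly in the nucleoplasm, near transcribed chromatin. LoNA is a long noncoding RNA of the nucleolus, and PRC2 is the complex that places the repressive histone mark H3K27me3. The comparison asks whether blocking p300 changes where, and how strongly, acetylated nucleophosmin is found on chromatin when LoNA is absent.

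The stretches below are the 250 bases before the start of 4 genes, shown because each lies wholly inside a peak and together they hold the lowest and the highest ratios of inhibitor to KO among such promoters with at least the median number of reads. They come from RefSeq on GRCm38.p6, the assembly that mm10 also represents, and are written 5′ to 3′ on the gene's own strand with every CG dinucleotide in capitals. Actn2 lies at chr13:12340733-12340982 and Amdhd1 at chr10:93540034-93540283, both on the minus strand, and these were the 2 lowest. Chl1 lies at chr6:103510626-103510875 on the plus strand and Man1a at chr10:54075738-54075987 on the minus strand, and these were the 2 highest.
Actn2: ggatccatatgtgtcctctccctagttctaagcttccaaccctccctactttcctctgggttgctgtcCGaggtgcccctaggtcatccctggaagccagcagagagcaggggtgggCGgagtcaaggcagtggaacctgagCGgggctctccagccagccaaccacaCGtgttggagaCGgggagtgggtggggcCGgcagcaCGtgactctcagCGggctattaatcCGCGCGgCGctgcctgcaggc
Amdhd1: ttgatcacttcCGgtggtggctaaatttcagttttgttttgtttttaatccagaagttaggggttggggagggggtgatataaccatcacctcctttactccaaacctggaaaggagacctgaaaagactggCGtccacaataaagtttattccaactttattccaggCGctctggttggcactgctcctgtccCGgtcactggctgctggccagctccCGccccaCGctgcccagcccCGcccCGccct
Chl1: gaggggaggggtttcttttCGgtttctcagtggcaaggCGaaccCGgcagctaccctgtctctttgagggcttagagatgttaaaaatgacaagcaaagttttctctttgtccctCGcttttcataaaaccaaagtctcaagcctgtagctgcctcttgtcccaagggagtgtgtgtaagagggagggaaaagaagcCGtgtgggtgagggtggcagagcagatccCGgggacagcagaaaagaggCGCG
Man1a: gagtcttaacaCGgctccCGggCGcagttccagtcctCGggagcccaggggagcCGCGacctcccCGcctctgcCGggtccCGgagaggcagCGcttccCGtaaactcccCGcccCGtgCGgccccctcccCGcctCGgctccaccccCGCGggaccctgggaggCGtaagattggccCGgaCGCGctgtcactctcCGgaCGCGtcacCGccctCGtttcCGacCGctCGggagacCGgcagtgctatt
The Actn2 stretch holds 12 CG dinucleotides, that of Amdhd1 8, that of Chl1 8 and that of Man1a 31. The median was 10 over all protein-coding promoters and 16 over those that lay within a peak, from which these 4 were drawn. Actn2, Amdhd1 and Chl1 thus stood below the median of the covered promoters, and Man1a well above it.

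Actn2 encodes a sarcomeric actinin that anchors actin filaments. The peak over its start held 340 reads in KO and 103 with the inhibitor, or 5.64 and 2.72 RPM (reads per 1000000 total reads), a ratio of 0.483 with a 95% interval of 0.384 to 0.604 that covers counting error only. Amdhd1 encodes an enzyme of histidine breakdown, and its peak measured 5.904 RPM in KO and 3.33 RPM with the inhibitor. Chl1 encodes a neural cell adhesion molecule of the L1 family, and its start measured 3.48 RPM in KO and 5.74 RPM with the inhibitor, a ratio of 1.65 (1.36 to 2.001). Man1a encodes a Golgi mannosidase that trims N-linked sugars, and its peak measured 4.295 RPM in KO and 5.98 RPM with the inhibitor. At each of these 4 starts the counting interval left out a ratio of 1. They were chosen for their extreme ratios, which favours such intervals by itself, so this only describes the chosen starts.

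Each condition has 1 column in the table, and whether it pools the 3 labelled samples or holds 1 of them is not given in the sources used here. No difference below therefore has a replicate check, no p-value can be given, and intervals cover the counting of reads only. The KO column rests on 60297174 total reads, the inhibitor column on 37816980 and the control column of the second table on 32077472, so the KO column is the deepest. A peak held a median of 243 reads in KO, from 32 to 92100, and a median of 142 with the inhibitor, from 20 to 76177. The RNA counts of 24h KO embryos came in 4 columns, summed by their correlation into 2 pairs that are called libraries here. The labels do not give this pairing. In these libraries the oocyte and early embryo genes Oosp1 (5734 and 4726 CPM, counts per 1000000) and Obox2 (2865 and 2472) were abundant. The keratin gene Krt18 had no counts in either library. Of other trophectoderm genes, Gata3 measured 0.0591 and 0 CPM and Tfap2c 0 and 6.42 CPM. Other genes of the oocyte and early embryo were low or varied between those libraries, with the egg coat gene Zp3 at 2.13 and 0 CPM, Zfp352 at 0.0591 and 44.0, Zscan4c at 49.4 and 1.94 and Zscan4d at 15.2 and 138.5. Ep300, which encodes p300, had no counts in one library and 9.45 CPM in the other. Npm1 itself measured 719.7 and 1346 CPM.

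As a share of each column's own reads, the AcNPM1 signal at these regions was nearly the same in both columns. Such scaled levels are relative, so a change in the total amount of AcNPM1 on chromatin was not measured. Embryos were not resolved, so signal in fewer cells and less signal per cell cannot be told apart. Peaks took up 7.88% of all reads in KO (95% exact binomial interval 7.87 to 7.88) and 7.42% with the inhibitor (7.42 to 7.43). The median peak measured 4.03 RPM in KO, with quartiles of 2.14 and 7.83, and 3.75 RPM with the inhibitor, with quartiles of 2.06 and 7.22. The median ratio was 0.944, a log2 ratio of -0.08, and the middle 90% of peaks lay between -0.58 and 0.44. Of the 11745 peaks, 7297 (62.1%) were lower and 4448 were higher with the inhibitor, and 8413 (71.6%) were within 1.25-fold either way. Levels of both columns ordered the peaks alike, with a Spearman correlation of 0.968 across 11745 peaks that share the antibody, the kit and the peak calls.

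A 2-fold difference was rare in both directions. The inhibitor column was at least 2-fold lower at 47 peaks, which is 0.4% of all peaks, and at least 2-fold higher at 15 peaks, which is 0.128%, so 62 peaks (0.528%) were past 2-fold either way. At 1.5-fold these were 556 peaks lower (4.73%) and 279 higher (2.38%). The excess of lower peaks depended on the scaling. When reads were divided by the summed reads of all peaks in place of total reads, the median log2 ratio was 0.0025, with 5827 peaks lower and 5918 higher, and the counts at 2-fold became 31 lower and 34 higher. The log2 ratio of the shares of reads in peaks was -0.09, near the median of -0.08, so on the second scale every ratio stands higher by that amount.

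**Figure D1:**
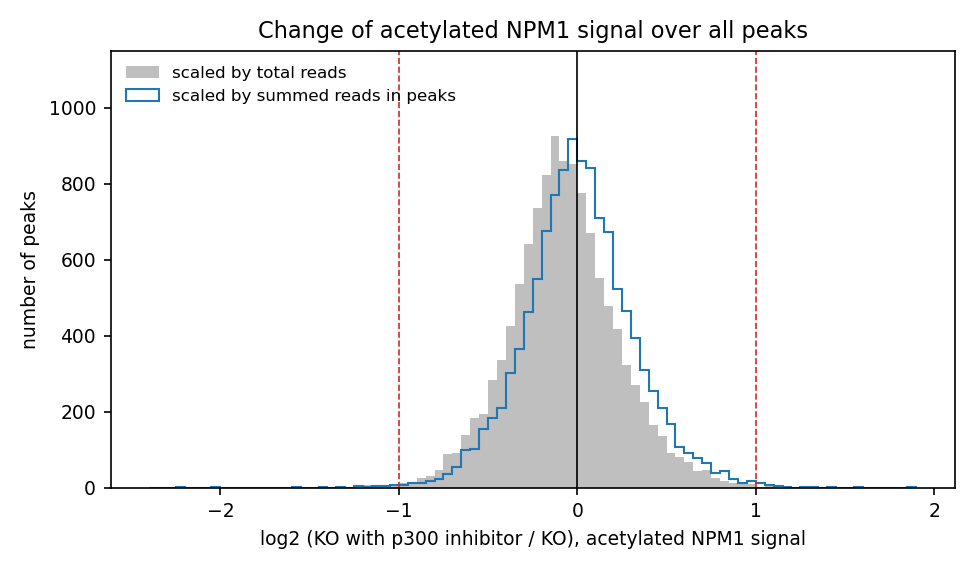
Number of peaks (vertical axis) by log2 ratio of inhibitor to KO (horizontal axis), in grey scaled by total reads and in blue scaled by the summed reads in peaks, with dashed lines at 2-fold. The grey distribution has its median at -0.08 and the blue one at 0.0025, and few peaks lie beyond the dashed lines.

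The ratios spread more widely than read counting alone gives. Their standard deviation over all peaks was 0.31 on the log2 scale, against 0.174 expected from the counts. The counting interval of the ratio lay below 1 at 2749 peaks (23.4%), above 1 at 957 (8.15%) and held 1 at 8039. When peaks were split into 10 equal groups by mean signal, the weakest group had a median log2 ratio of 0.04 with a standard deviation of 0.417, and the strongest group had -0.10 with 0.186, where counting gives 0.0701. The spread beyond counting contains any difference between samples or libraries, which 1 column per condition cannot separate from an effect of the inhibitor.

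**Figure D2:**
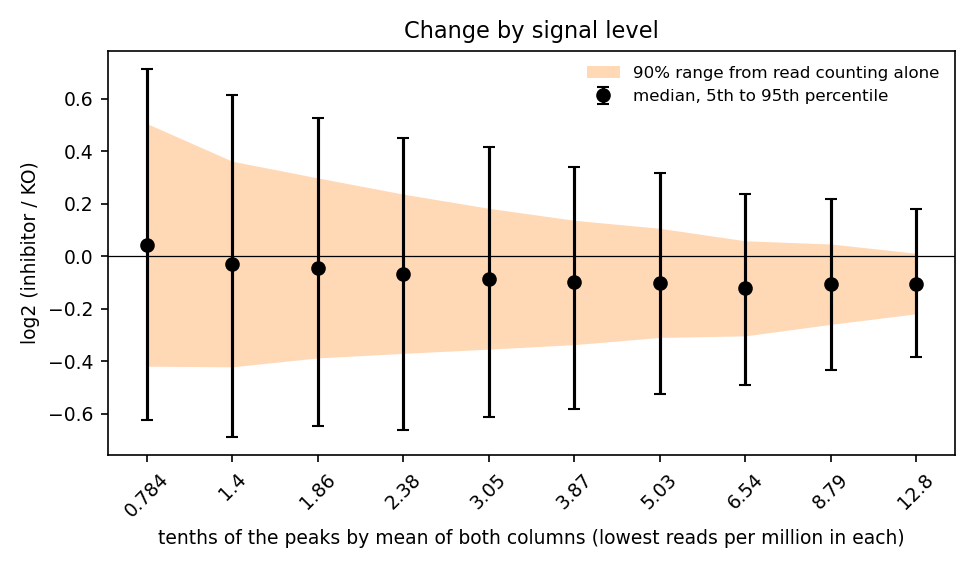
Log2 ratio of inhibitor to KO (vertical axis) in 10 groups of peaks ordered by mean signal, each marked with its lowest mean in RPM (horizontal axis). Points are medians, bars run from the 5th to the 95th percentile, and the shaded band is the 90% range that counting alone gives. The bars extend beyond the band in every group.

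Ribosomal RNA (rRNA) genes were examined because nucleophosmin is a nucleolar protein. The 5S rRNA genes are transcribed by RNA polymerase III from an array on chromosome 8, while the long repeats that encode the other nucleolar rRNAs are largely missing from this assembly. There were 46 peaks within 5 kb of an annotated rRNA gene, and 45 of them were lower with the inhibitor, against 62.1% of all peaks. Strong peaks were lower more often than weak ones, and in the strongest of the 10 groups by mean signal 74.7% were lower, with a median log2 ratio of -0.10. The 46 peaks near rRNA genes had a median log2 ratio of -0.15, with a range of -0.43 to 0.05. Their median level was 41.7 RPM in KO and 39.0 RPM with the inhibitor. Among them were 39 peaks in the 5S array, between 123537912 and 123624143 on chromosome 8, and all 39 were lower with the inhibitor. Scaled by the summed reads in peaks, 35 of the 46 and 30 of the 39 were lower, with a median of -0.06 over the 46. The summed signal of those 39 peaks was 2403 RPM in KO and 2177 RPM with the inhibitor. Scaled by total reads, the counting interval lay below 1 at 33 of the 39, beside 23.4% of all peaks. Each of the 39 held at least 13.8 RPM in KO, above the upper quartile of 7.83 RPM. More reads make the interval narrower, so the 2 shares are not of like peaks. No peak of the array was 2-fold lower, and the peaks lie side by side in 1 repeat array, so they are not independent.

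The strongest peak of the array, over the 5S pseudogene Rn5s-ps1, held 13564 reads in KO and 7800 with the inhibitor, or 225.0 and 206.3 RPM. The control column measured 206.5 RPM in the same region. The peak over n-R5s108, a 5S gene, measured 79.8 RPM in KO, 67.7 RPM with the inhibitor and 68.9 RPM in control. The peak over n-R5s103, a further 5S gene, was among the 5 that moved least of the 100 strongest peaks, at 59.2 and 58.1 RPM. A peak over Rn18s-rs5, a copy related to the 18S rRNA gene on chromosome 17, measured 205.0 RPM in KO and 181.3 RPM with the inhibitor. Repeat copies share reads, so a level at a single copy is uncertain, and how the authors placed reads that match several copies is not given in the sources used here.

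The strong peaks went both ways. Of the 40 peaks with the highest KO signal, 10 of which are peaks near rRNA genes, 30 were lower with the inhibitor and 10 higher, or 22 and 18 when scaled by the summed reads in peaks. The strongest of all, at chr2:98666250-98667316, is an assembled stretch of satellite repeat onto which reads of many copies can be placed, and it measured 1527 RPM in KO and 2014 RPM with the inhibitor. Regions near the start of the assembled chromosome 9 were likewise higher, with 138.8 and 193.2 RPM at chr9:3000009-3001529 and 245.8 and 317.1 RPM at chr9:3023429-3024669. Several narrow peaks were lower. At chr12:120028664-120029020 the level was 253.5 RPM in KO and 174.7 RPM with the inhibitor, and at chr3:159939405-159939678 it was 81.2 and 44.3 RPM. Of the 10 strong peaks narrower than the median width of 640 bases, 8 were lower, with a median log2 ratio of -0.51, and the 30 wider ones had a median of -0.08. All 40 were chosen by the KO column, the denominator of the ratio, with the weakest at 74.2 RPM in KO. That choice favours low ratios, as at chr3:159939405-159939678, which entered only through its KO level, so these medians only describe the chosen peaks. Widths were compared after the values had been seen.

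**Figure D3:**
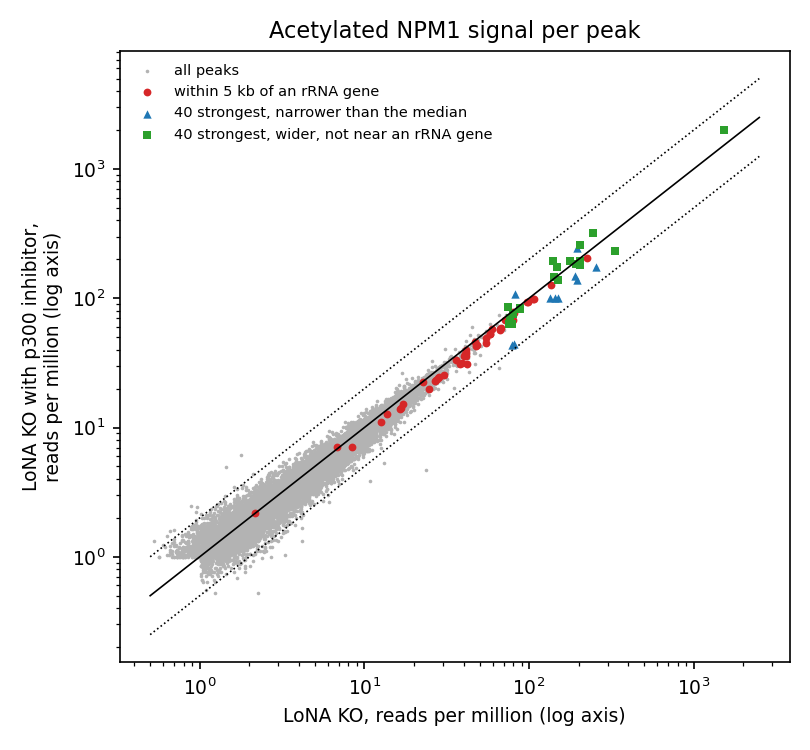
AcNPM1 signal per peak in KO (horizontal axis) and with the inhibitor (vertical axis), both in RPM on log axes, with the line of equality and dotted lines at 2-fold. Red points, 45 of 46 peaks within 5 kb of an rRNA gene, lie under the line, and so do 8 of the 10 strong peaks narrower than the median, drawn as blue triangles. Green squares are the other strong peaks.

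Of the 8 lowest ratios among peaks with at least the median number of reads, 7 were at peaks narrower than the median. Of these 8, 4 lay outside genes, beside 28.3% of all peaks. A region of chromosome 13, at chr13:120321419-120321637, held 1431 reads in KO and 178 with the inhibitor, or 23.7 and 4.71 RPM, a log2 ratio of -2.33. A narrow peak within Dop1b, which encodes a protein of membrane traffic, measured 10.9 and 3.86 RPM. The region at chr1:195371722-195371969 measured 65.4 RPM in KO and 28.8 RPM with the inhibitor, and that at chr2:57629491-57629725 measured 13.2 and 5.34 RPM. In control embryos the same 2 regions measured 29.3 and 5.11 RPM, close to the inhibitor column. No other of the 8 had a control value. Choosing low ratios favours a high KO level, so this closeness only describes the chosen regions. Among the 20 lowest ratios of the whole table, most regions with a control value stood well below control. The log2 ratio of inhibitor to control was lowest at chr1:82477355-82478053, with -1.034. It was -0.982 at chr15:9015718-9016339, -0.897 at chr8:14293231-14293619 and -0.569 at chr7:50575023-50575399. At chr2:173056820-173057107 it was -0.191. Choosing low ratios also favours a low inhibitor level, so these values only describe the chosen regions. Of the 8, a further peak within a gene, in Myh7b, a myosin heavy chain gene, measured 6.04 RPM in KO and 2.99 RPM with the inhibitor.

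Among the 8 highest ratios, chosen in the same way, were the start of Chl1 and 4 further genes of known function. The start of Astn1, which encodes a protein of neuronal migration, measured 4.84 RPM in KO and 7.67 RPM with the inhibitor. A peak in Nxph3, a neurexophilin gene, measured 3.88 and 6.21 RPM, and one in Pax3, a regulator of neural crest and muscle, 4.03 and 6.32 RPM. The start of Aqp11, an aquaporin gene, measured 3.18 and 5.37 RPM. Of the 11 peaks at the starts of the listed neuronal and adhesion genes, 7 were lower with the inhibitor, beside 67.4% of peaks at all protein-coding starts. Scaled by the summed reads in peaks, 5 of 11 were lower, beside 53.4%. The 2 largest ratios of the whole table were weak peaks within Acacb, an acetyl-CoA carboxylase gene, at 1.44 and 4.97 RPM, and Gm34259, at 1.79 and 6.16 RPM.

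The 47 peaks that were 2-fold lower were narrow and mostly weak. Their median width was 435 bases, and 39 of the 47 were narrower than the median peak. Their median level was 2.703 RPM in KO and 1.19 RPM with the inhibitor. Of them, 4 lay within 1 kb of a gene start, while 23 lay elsewhere in genes and 18 outside genes. The other 2 are on chromosome 18, where starts were not used here. Of all peaks, 28.1% lay near starts, 40.2% elsewhere in genes and 28.3% outside genes. The 15 peaks that were 2-fold higher had 32 to 127 reads in KO, and none lay near a start. Peaks at starts were stronger, and the log2 spread expected from counting was 0.144 there and 0.199 outside genes. The part of level in these counts was not tested. Just inside the limit, a peak in Dagla had a log2 ratio of -1.001, and just outside it one in Epm2a had -0.99.

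Gene starts had ratios close to those of other peaks. Of all peaks, 3298 (28.1%) lay within 1 kb of a gene start, 4722 elsewhere in genes and 3328 outside genes. Peaks at starts measured a median of 6.05 RPM in KO and 5.63 RPM with the inhibitor, a median log2 ratio of -0.10. Peaks elsewhere in genes had a median log2 ratio of -0.08 and those outside genes -0.06. Autosomes stood at -0.09, the 316 peaks of the X chromosome at -0.02, and the 33 peaks of the Y chromosome at 0.15, with 9 of the 33 lower. The Y peaks were weak, with a median of 1.41 RPM in KO, and the labels do not give the sex of the embryos.

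Most AcNPM1 peaks overlapped regions with histone marks measured in 24h control and KO embryos, with 1 sample per group. By at least 1 shared base, 8477 peaks (72.2%) overlapped an H3K27me3 peak, and 8349 of the 11638 H3K27me3 peaks (71.7%) overlapped an AcNPM1 peak. H3K4me3, the mark of active and poised starts, was shared by 8664 AcNPM1 peaks (73.8%), which met 17.1% of the 48658 H3K4me3 peaks. Both marks were found at 6756 AcNPM1 peaks and neither at 1360. Across the 8477 shared regions the KO AcNPM1 level followed the mean H3K27me3 level, with a Spearman correlation of 0.881, and the inhibitor level did so with 0.883. Across 8664 regions the correlation with H3K4me3 was 0.360 and 0.362. Each of these correlations shares region width and sequence between its 2 measures.

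The ratio itself differed little with the marks. The correlation of the log2 ratio with H3K27me3 was -0.05 and with H3K4me3 -0.03. Median log2 ratios were -0.10 where both marks were found, -0.08 with H3K27me3 alone, -0.04 with H3K4me3 alone and -0.02 with neither. The levels of AcNPM1 differed along with these classes, from a median of 5.92 RPM in KO where both marks were found to 2.11 RPM with neither, and the part of level in this order was not tested.

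**Figure D4:**
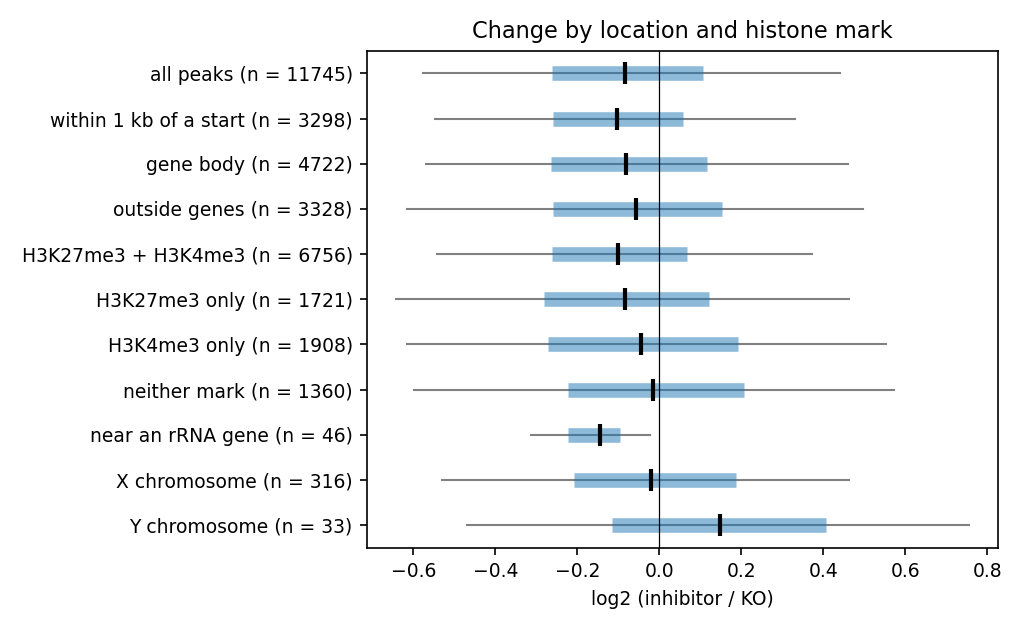
Log2 ratio of inhibitor to KO (horizontal axis) for peaks grouped by location, histone mark, nearness to an rRNA gene and sex chromosome. Black ticks are medians, blue bars the middle 50% of peaks and grey lines the 5th to 95th percentiles. Medians run from -0.15 near rRNA genes to 0.15 on the Y chromosome.

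Developmental regulators and Wnt genes often had a peak at their start. Of 17492 protein-coding genes with a listed start, 2650 (15.1%) had a peak within 1 kb, while this held for 66 of 123 developmental transcription factors outside the Hox clusters and 20 of 31 Wnt ligands, receptors and inhibitors. The share was 9 of 22 for Hox genes and 16 of 37 for Notch, BMP, FGF and hedgehog signalling. No gene of nucleolus and ribosome biogenesis (0 of 43) and no gene of a cytosolic ribosomal protein (0 of 57) had one. The lists were written with earlier results of these data known, and these counts are descriptions.

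With the inhibitor, 56 of the 75 peaks at developmental transcription factors were lower, with a median log2 ratio of -0.14, and none was 2-fold lower. Over the 2939 peaks at all protein-coding starts the median was -0.11 (1981 lower), with 3 peaks 2-fold lower and 0 higher. Scaled by the summed reads in peaks, these became 49 of 75 and 1570 of 2939 lower, with medians of -0.05 and -0.02. The strongest was at Neurog1, a proneural factor, at 26.9 RPM in KO and 23.6 RPM with the inhibitor. Phox2a, a regulator of autonomic neurons, measured 22.0 and 18.2 RPM, with 19.5 RPM in control. Ptf1a, a factor of pancreas and inhibitory neurons, measured 22.8 and 21.0 RPM, with a counting interval that held a ratio of 1. Gata5, a factor of heart and endoderm, went the other way at 17.3 and 20.5 RPM.

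Peaks at signalling and Hox genes were lower about as often as those at all protein-coding starts, where 67.4% were lower. Wnt10b, a Wnt ligand, measured 20.9 RPM in KO and 16.3 RPM with the inhibitor, and Sfrp5, a secreted Wnt inhibitor, 22.9 and 21.4 RPM. Grem1, a secreted BMP antagonist, was higher with the inhibitor at 24.4 and 27.9 RPM. Among 10 peaks at Hox genes 7 were lower, with Hoxd12 at 21.3 and 18.6 RPM and Hoxc4 at 14.3 and 11.5 RPM, while Hoxd10 was higher at 6.58 and 7.83 RPM. Of 18 peaks at Notch, BMP, FGF and hedgehog genes 12 were lower, and of 26 at Wnt genes 17. None of these was past 2-fold. Scaled by the summed reads in peaks, 5 of 10 Hox peaks, 12 of 26 Wnt peaks and 11 of 18 peaks of the other pathways were lower, and the Wnt median turned from -0.08 to 0.0049.

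Among genes of early lineages, peaks were common at trophectoderm regulators and few at pluripotency and two-cell genes. Trophectoderm regulators had a peak at 8 of 14 genes, against 15.1% of all protein-coding genes. With the inhibitor 7 of their 10 peaks were lower, near the 67.4% of the peaks at all protein-coding starts. The median log2 ratio of the 10 was -0.20, with a range of -0.33 to 0.27, beside -0.11 at all those starts. Scaled by the summed reads in peaks, 6 of 10 were lower, beside 53.4%, with medians of -0.12 and -0.02. Ascl2, a trophoblast factor, measured 15.8 and 12.6 RPM at its stronger peak and 10.05 and 10.4 RPM at its other one. Cdx2, which specifies trophectoderm, measured 9.22 and 7.77 RPM, and Gata3, which acts beside it, 5.52 and 4.495 RPM. Among 17 pluripotency genes, Esrrb was the one with a peak, at 9.97 RPM in both columns. Of 24 two-cell genes with a listed start, Duxf3 and Sp110 had peaks. The main Duxf3 peak, at a copy of the Dux gene that switches on two-cell genes, measured 21.9 RPM in KO, 22.9 RPM with the inhibitor and 22.0 RPM in control. That Dux copies share reads makes this level uncertain.

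Counts for chromatin regulators and imprinted genes stand beside 15.1% of protein-coding genes with a peak at the start. Of 50 genes of PRC1, PRC2, lysine acetyltransferases and deacetylases 4 had a peak. With the inhibitor 4 of their 5 peaks were lower, or 3 of 5 when scaled by the summed reads in peaks. The median log2 ratio of the 5 was -0.12. The Hdac7 peak, at a deacetylase gene, was the lowest of the 5 at 3.65 and 2.19 RPM. The Hdac2 peak, at another deacetylase gene, measured 5.79 and 5.61 RPM. Of 24 imprinted genes 8 had peaks, and 7 of their 9 peaks were lower, or 6 of 9 when scaled by the summed reads in peaks, beside 67.4% and 53.4% of the peaks at all protein-coding starts. Mest, a paternally expressed gene, measured 3.43 and 2.301 RPM, and Dlk1, a Notch-like ligand, 9.403 and 8.14 RPM. Magel2 was higher with the inhibitor at both of its peaks, with 8.52 and 10.4 RPM at one and 9.72 and 10.6 RPM at the other. In RNA of KO embryos, 1063 of the 2650 genes with a peak at the start (40.1%) and 6897 of the 14842 without (46.5%) were listed, and the median level of those listed was 2.73 and 7.002 CPM.

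Promoters inside peaks were rich in G and C. Over the 1088 protein-coding promoters whose 250 upstream bases lay within a peak, the median G and C content was 64.4% and the median number of CG dinucleotides 16, against 55.6% and 10 over all 21263 promoters. The letters GGGCGG, searched on both strands, were found in 66.2% of the covered promoters and in 42.6% of all. Covered promoters with a lower ratio (776) and those with a higher ratio (312) had 64.0% and 64.4% G and C, 16 and 16 CG dinucleotides, and the letters in 65.5% and 67.9%. At 1.5-fold, the 39 lower promoters had medians of 62.0% G and C and 12 CG dinucleotides, and the 4 higher ones 72.0% and 29.5, too few to compare.

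The second AcNPM1 table, KO against control, shares the KO column with this one. Of the 11745 peaks, 7946 (67.7%) overlapped one of its peaks, and 7960 of its 9602 peaks (82.9%) overlapped one here. At 2317 regions with the same borders in both tables, the median level was 5.24 RPM in control, 6.37 RPM in KO and 5.53 RPM with the inhibitor. The median log2 difference between KO and control there was 0.23 and between inhibitor and KO -0.17. Since both differences hold the same KO values, any error in the KO column enters them with opposite sign. The inhibitor column against control does not hold that column, and its median log2 ratio was 0.07, with 1383 of 2317 regions (59.7%) above control, 2 regions 2-fold higher and 4 2-fold lower. These regions stood further from 0 than all peaks, where the medians were 0.14 for KO over control and -0.08 for inhibitor over KO, and do not stand for the whole table.

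The strongest regions showed the 3 columns most clearly. Of the 40 strongest peaks 23 had the same borders in both tables, and their log2 ratio of inhibitor to control ran from -0.20 to 0.20. At the 6 narrow ones the median was 105.6 RPM in control, 142.5 RPM in KO and 100.7 RPM with the inhibitor, and the lowest ratio was at chr3:159939405-159939678 with 44.4, 81.2 and 44.3 RPM. The satellite region of chromosome 2 stood the other way, at 2104 RPM in control, 1527 RPM in KO and 2014 RPM with the inhibitor. At the 23 regions near rRNA genes with the same borders, the medians were 42.9, 47.9 and 42.8 RPM. At 673 regions near gene starts they were 6.61, 8.38 and 7.43 RPM. The 40 strongest peaks were chosen by their KO level, which by itself favours a KO column above the others, and both narrow regions with 44.3 or 43.8 RPM under the inhibitor entered only through that column. The order at the 6 narrow regions is therefore a description of the chosen regions, while the satellite region stood lower in KO despite that choice. The KO column is also the one with the most reads, and the part of depth, library or batch in this was not tested.

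**Figure D5:**
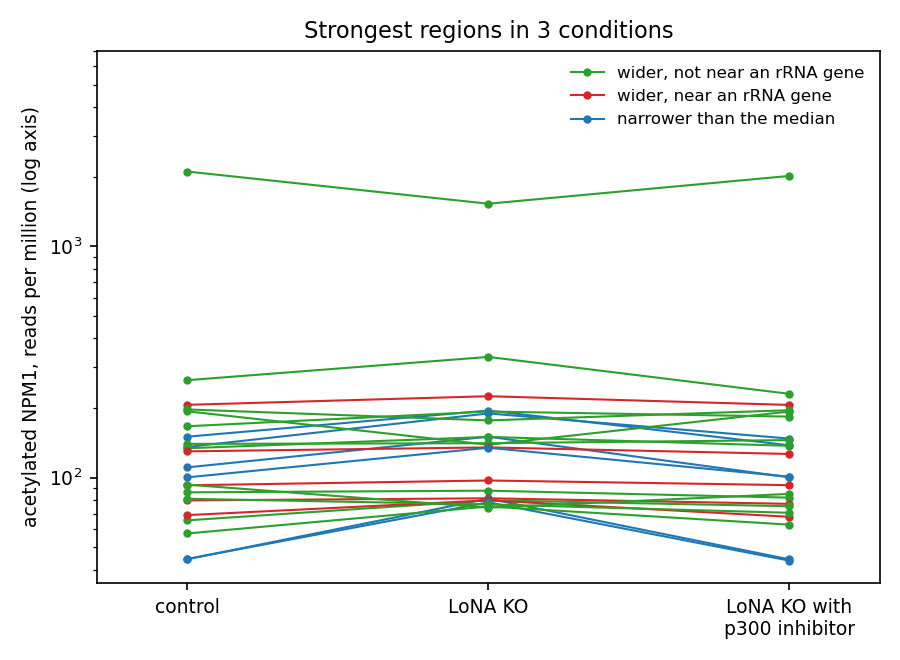
AcNPM1 level in RPM on a log axis (vertical) in control, KO and KO with p300 inhibitor (horizontal) for the 23 of the 40 strongest regions with the same borders in both tables, 1 line per region. The 6 narrow regions, in blue, peak in KO, and the topmost line, at 2104, 1527 and 2014 RPM, is lowest in KO.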

How the data were processed

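The AcNPM1 table set KO with inhibitor against KO, and the table of KO against control, the H3K27me3 and H3K4me3 tables and the 24h RNA table were read beside it. Per the submitters' processing notes, bcl2fastq 2.2, Bowtie2 2.1.0, MACS2 2.1.1 and the build mm10 were used. Whether peaks were called per sample or on pooled samples, and how duplicate reads were treated, is not given in the sources used here. Per the file headers, the deposited tables hold for each peak the reads as counts, the total reads of each column, the RPM (reads in a peak scaled by total reads) and the log2 ratio, all made by the authors. The series' design text speaks of H3K27ac, while labels and tables name H3K27me3 and H3K4me3. The columns of the mark tables carry initials and were read as KO and control from the table's title and ratio, which touches no value, since both were averaged.

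RPM and log2 ratios were recomputed from reads and totals in Python 3.11.15 with pandas 2.3.3, numpy 2.4.6 and scipy 1.17.1, and the ratios differed from the deposited log2 column by at most 0.00016. Intervals of ratios are 95% exact binomial intervals, given the summed reads of both columns at a peak, and cover counting error only. Starts and genes are from RefSeq on GRCm38.p6, without the 397 peaks of chromosome 18. The deposited RNA counts of 24h KO embryos came in 4 columns, which formed 2 pairs with correlations over 0.99 that were summed. Peaks were named by rule, among those with at least the median summed reads, as the 10 strongest, the 8 lowest, the 8 highest, the 5 nearest 0 of the 100 strongest and those with most reads per list. Promoters were chosen by the rule given with their letters. Narrow and satellite regions outside the 10 strongest, n-R5s108, Gata5, Gata3, Mest, the extremes of the whole table and peaks next to the 2-fold limit were named after their values were seen. Members and lists were chosen with earlier results of these data known. No test was made, as the table holds 1 column per condition. The alternatives were other scalings, fold limits, overlaps and subsets of peaks.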

Additional observations from a re-analysis of the deposited data

How the results depend on the processing

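No paired analysis was possible because the table holds 1 column per condition, and for the same reason no replicate could be left out. Scaling by the summed reads in peaks moved the median log2 ratio from -0.08 to just past 0, at 0.0025. It gave 31 peaks 2-fold lower and 34 higher, against 47 and 15. Setting the median to 0 is nearly the same shift and gave the same counts (31 and 34). With a limit of 1.5-fold there were 556 lower and 279 higher, and of 4-fold 2 and 0. Among peaks at or above the median width 8 were lower and 5 higher, with a median of -0.10. Peaks shared with the table of KO against control had a median of -0.10. With at least 50% of the peak covered, or with its centre inside, the overlap with H3K27me3 was 70.8% under both and with H3K4me3 71.9% and 72.1%. Leaving out the 50 strongest peaks, chosen after seeing the data as was the subset of autosomes, gave 7.11% of reads in peaks for KO and 6.65% with the inhibitor. The other 21 alternative values stayed within 1.5 times the count, or within the spread or interval of the value. Among them, a minimum of 20 summed reads removed no peak, and the deposited log2 column holds the same ratios. Those values could not differ and are no check. Depth limits weak peaks most, and counting intervals hold no difference between embryos or libraries.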
